A study of Mus musculus with 2 samples.

Results

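The genes described here encode the proteins of the cytosolic ribosome. They were chosen by symbol as every gene named Rpl or Rps with a number, plus Rplp0, Rplp1, Rplp2 and Rpsa, without pseudogenes marked -ps or Rps6k kinases, and with at least 20 UMIs (unique molecular identifiers, each standing for 1 captured transcript) over both replicates. Of 86 matching symbols, 84 passed this minimum (50 of the large and 34 of the small subunit), out of 17946 genes with a UMI in the cells kept and 23679 genes in the tables. Rpl3l with 1 UMI and Rpl10l with 0 fell outside it. Just inside it were Rpl39l with 32 UMIs, Rps10 with 53, Rps19bp1 with 109, Rpl36al with 128 and Rps27l with 391. Rps19bp1 matches the name rule but encodes an Rps19-binding protein, not a subunit.

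The study captured group 3 innate lymphoid cells (ILC3s), lymphocytes of the gut mucosa that make interleukin 22, with the BD Rhapsody microwell system. Both samples carry the same labels: male C57BL/6 mice, 18 months old, small-intestinal lamina propria, sorted as ILC3s. There are 2 replicates, tag 6 and tag 12 of 2 multiplexed libraries, and nothing says whether they came from separate animals, so the spread between them may be technical. The labels name no other age, genotype or treatment for them. After filtering, 3337 and 3840 cells with 6939790 and 6810214 UMIs were kept in replicates 1 and 2.

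Groups were formed within each library by UMIs. T cells had at least 1 UMI of Cd3d, Cd3e or Cd3g (1149 and 1117 cells), and all others are called CD3-zero (2188 and 2723 cells). CD3-zero cells were split into Ncr1+ cells, which carry the natural cytotoxicity receptor of a major ILC3 subset (608 and 438 cells), Ccr6/Cd4+ cells without Ncr1, the markers of lymphoid tissue inducer cells (128 and 79 cells), and the other CD3-zero cells (1452 and 2206 cells). Separately, CD3-zero cells with at least 5 Il22 UMIs (519 and 613 cells) were set against those with 0 (972 and 1320 cells). The summed level of 8 T cell markers was 44.4 and 37.7 UMIs per 10000 UMIs in T cells, against 9.63 and 10.8 in CD3-zero cells, where Cd3d, Cd3e and Cd3g are 0 by the gate. The 6 ILC3 markers summed to 27.9 and 32.7 in T cells and to 30.8 and 33.0 in CD3-zero cells, so the CD3-positive cells of this sort also held ILC3 marker transcripts. A 0 does not exclude the gene. A UMI of a T cell receptor constant gene was found in 1525 and 1898 CD3-zero cells, which does not by itself make them T cells. In replicate 1, 47.7% of CD3-zero cells held Trbc1 and 44.4% Trbc2, but only 7.40% held Trac and 3.20% Trdc. Of the cells with the replicates' own tags, 10 cell indices occurred in both libraries.

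A eukaryotic ribosome joins a small subunit, which decodes the mRNA, to a large subunit, which forms the peptide bond, and most subunit proteins are present once in each particle. Cells therefore make their mRNAs in a coordinated way. In mammals many of these mRNAs begin with a C followed by a run of pyrimidines, the 5′ terminal oligopyrimidine (TOP) motif, through which mTOR signalling and the protein LARP1 control their translation and stability. Resting lymphocytes hold a large pool of such mRNAs.

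RefSeq promoter entries (GRCm38.p6) were found for 64 of the 84 genes. The annotated start itself is shown because the TOP motif is defined by the first transcribed base. The following windows run 5′ to 3′ on the transcribed strand from 10 bases before the start to 20 bases of transcript, and capitals mark a pyrimidine run that begins with C at the annotated first base. The first 6 have such a run and the last 3, genes the results turn on, do not.
Rps27 (chr3:90213629-90213658, minus strand): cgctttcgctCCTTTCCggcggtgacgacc
Rps27rt (chr9:114982720-114982749, minus strand): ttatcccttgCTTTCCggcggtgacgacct
Rpl15 (chr14:18270967-18270996, minus strand): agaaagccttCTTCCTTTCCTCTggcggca
Rpl35 (chr2:39005112-39005141, minus strand): ccgccctttcCTCTTTCTCTCgaaccaggc
Rps18 (chr17:33955646-33955675, minus strand): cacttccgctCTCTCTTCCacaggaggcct
Rps6 (chr4:86857348-86857377, minus strand): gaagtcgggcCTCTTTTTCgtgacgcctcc
Rpl12 (chr2:32961702-32961731, plus strand): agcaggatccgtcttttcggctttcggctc
Rpl10 (chrX:74270806-74270835, plus strand): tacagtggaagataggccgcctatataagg
Rpl36al (chr12:69184048-69184077, minus strand): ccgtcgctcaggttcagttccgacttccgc

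A C followed by at least 4 pyrimidines at an annotated start was found in 14 of the 64 genes (21.9%), against 3.01% of 27025 genes with an entry. The motif CTTTCC, read on the transcribed strand within 30 bases of the start, was present in 20.3% of them and in 3.40% of all genes, and it can overlap the pyrimidine run. CCGGAAG, which holds the core bound by ETS-family transcription factors, stood on either strand of the 300-base promoter window in 40.6% of them and in 9.93% of all genes. A match describes the letters of these windows and shows no bound site, and a start that RefSeq places a few bases away from the one in use would hide a pyrimidine run. Rps27 and its near-copy Rps27rt share a stretch of 19 bases across their 30-base windows. By GENCODE M21 positions the 84 genes lie on 19 chromosomes, with 14 on chromosome 7 and 4 on X (Rpl10, Rpl36a, Rpl39 and Rps4x).

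Ribosomal protein transcripts made up 9.38% of all UMIs in replicate 1 and 9.52% in replicate 2, or 651260 and 648184 UMIs. The most captured was Rps27, a zinc-finger protein of the small subunit, with 36.3 and 35.8 UMIs per 10000 over all kept cells of replicates 1 and 2. It was followed by Rpl17, Rps24, Rps9, Rpl39, the stalk protein gene Rplp1, Rps12, Rpl23, Rpl37a and Rps16. These 10 held 26.8% and 26.7% of the 84 genes' UMIs, so no single subunit protein dominated the captured RNA. The median gene stood at 10.6 and 10.2 UMIs per 10000. Only 7 genes in replicate 1 and 6 in replicate 2 were under 1 per 10000. This order is one of captured UMIs, without scaling for length. Between replicates, 81 of 84 levels lay within 0.25 on the log2 scale.

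The sparse end held paralogs and genes with close copies. Rps10, a subunit protein that every ribosome carries, had 53 UMIs, and Rpl13a had 1354. Processed copies named -ps took 14977 UMIs, or 1.15% of the 84 genes' UMIs. Rpl10-ps3 had 7446 UMIs, 114% of those of Rpl10, and Rpl13a-ps1 had 2618, 193% of those of Rpl13a. How the pipeline assigned reads that match several copies is not given in the sources used here, so the levels of Rpl10, Rpl13a, Rps10 and the pair Rps27 and Rps27rt are uncertain. The name rule misses ribosomal proteins with other symbols: Fau, whose product is cut to a small subunit protein, had 13554 UMIs, and Rack1, a scaffold on the small subunit, had 10296.

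**Figure D1:**
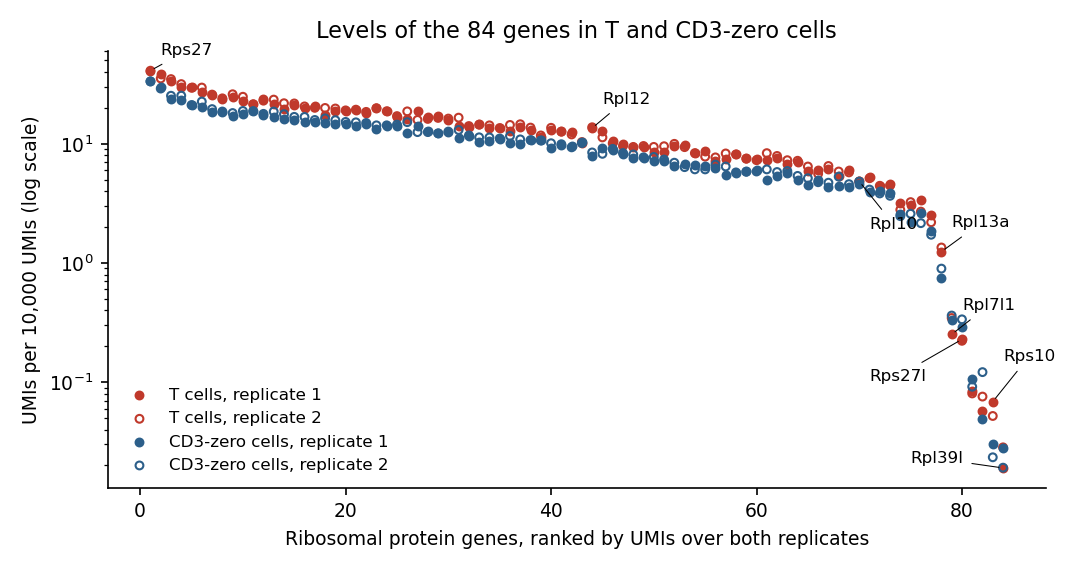
Level of each of the 84 genes (UMIs per 10000 UMIs, log axis) in T cells (red) and CD3-zero cells (blue), with replicate 1 filled and replicate 2 open, ranked by UMIs over both replicates. T cells lie above CD3-zero cells along most of the ranking, Rpl10 does not part by group, and the 6 lowest ranks are paralogs, Rps19bp1 and Rps10.

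T cells had a larger share of ribosomal protein transcripts than CD3-zero cells. The 84 genes took 10.95% and 11.16% of UMIs in T cells of replicates 1 and 2, against 8.43% and 8.78% in CD3-zero cells. The groups did not overlap: the share averaged 11.1% ± 0.148 in T cells and 8.60% ± 0.245 in CD3-zero cells (SD, n = 2 each), a mean ratio of 1.29. The log2 ratio of the shares was 0.38 in replicate 1 and 0.35 in replicate 2. With 2 replicates no permutation test of the share can pass, so none was made. A share gives no absolute amount: more ribosomal protein RNA and less of the other RNA cannot be told apart.

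The difference ran through the cells of the group. In replicate 1, 85.8% of T cells had a share above the median CD3-zero cell, and in replicate 2 84.4% did. Median shares per cell were 11.1% and 11.1% in T cells and 8.37% and 8.63% in CD3-zero cells. T cells were somewhat deeper, with a median of 1991 and 1769 UMIs against 1802 and 1622 in CD3-zero cells. After each cell was thinned to 1000 UMIs, which left out 35 and 53 T cells and 151 and 260 CD3-zero cells, the median shares were 11.05% and 11.2% in T cells and 8.40% and 8.70% in CD3-zero cells. Within bins of UMIs per cell the log2 ratio lay between 0.28 and 0.43 in replicate 1 and between 0.23 and 0.40 in replicate 2, above 0 in all 6 bins of both. The bin of at least 5000 UMIs in replicate 2 held only 8 T cells and 13 CD3-zero cells.

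The 3 CD3-zero groups lay close together, with Ncr1+ cells lowest in each library. Ncr1+ cells were at 8.32% and 8.65%, Ccr6/Cd4+ cells at 8.43% and 8.90%, and the other CD3-zero cells at 8.48% and 8.80%. The log2 ratio of Ncr1+ cells over the other CD3-zero cells was -0.027 and -0.025. Within T cells, those with Trac and no Trdc UMI were at 11.2% and 11.2%, and those with Trdc and no Trac UMI at 11.1% and 11.3%. T cells with a Cd4 UMI were at 11.5% and 11.7%. T cells with a single CD3 UMI stood at 10.01% in replicate 1 and 11.01% in replicate 2, below the 10.95% and 11.16% of all T cells. These splits were chosen after the values were seen and are not tested, and shares of all of them exceeded those of CD3-zero cells with no T cell receptor UMI, at 8.27% and 8.48%. The mitochondrial share was 9.22% and 8.77% in T cells against 8.61% and 8.05% in CD3-zero cells. The 5 B or plasma cell markers summed to 33.9 and 2.80 UMIs per 10000 in T cells and 55.0 and 34.3 in CD3-zero cells, and the part of these differences in the share was not tested.

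**Figure D2:**
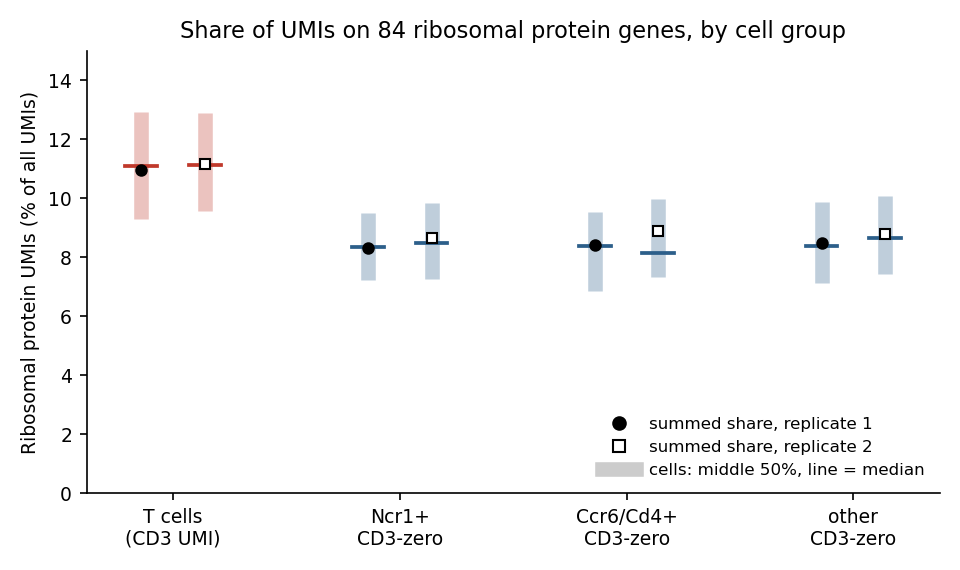
Share of UMIs on the 84 genes (%) in T, Ncr1+, Ccr6/Cd4+ and other CD3-zero cells, by replicate. Bars span the middle 50% of cells, coloured lines are cell medians and black symbols are summed shares. T cells stand at 10.95% and 11.16%, and the 3 CD3-zero groups between 8.32% and 8.90%.

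Gene by gene, 74 of the 82 genes tested were higher in T cells than in CD3-zero cells and 0 were lower (edgeR quasi-likelihood test on UMI sums with the replicate as a block, adjusted p under 0.05 over 9636 genes). Among all genes tested, 8.8% were higher and 6.42% lower. Rpl39l and Rps10 had too few UMIs to be tested. The tested ratio sets T cells against the mean of the Ncr1+, Ccr6/Cd4+ and other CD3-zero groups. Each group has equal weight after edgeR's scaling, however few its cells. The CD3-zero levels given beside these ratios, and the share ratio above, pool all CD3-zero cells without that scaling. Levels and ratios of a gene therefore need not match. The median log2 ratio was 0.42 over the 82 genes and 0.05 over all genes tested, and single replicates gave 0.41 and 0.43. Split by symbol, 43 of 49 Rpl genes were higher (median 0.40), and 31 of 33 Rps genes (median 0.44). The 33 include Rps19bp1, which is no subunit and was not called. At an unadjusted p under 0.05, 76 were higher and 0 lower, where 26.7% of all genes tested passed in either direction. DESeq2 called the same 74 genes, against 5.19% higher and 4.94% lower of all genes. Without the replicate block edgeR called 0 of the 82 genes, of which 61 had an unadjusted p under 0.05 (smallest adjusted p = 0.06), and of all genes 0.903% were higher and 0.82% lower. The median log2 ratio was 0.42 without the block as well, so the calls, not the ratios, rest on comparing groups within a library. Both groups come from the same 2 libraries, and the p-values speak only for those libraries. They set a ratio against a spread that edgeR estimated from all 8 sums and moderated across genes. A called ratio therefore need not be even in both libraries.

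Rpl12, a large subunit protein at the base of the stalk that recruits translation factors, differed most. It had 13.5 and 13.8 UMIs per 10000 in T cells of replicates 1 and 2, against 7.85 and 8.45 in CD3-zero cells, with no overlap. Its log2 ratio over the equally weighted CD3-zero groups was 0.86 ± 0.08 (SE), a fold of 1.81, with an edgeR adjusted p = 4.0e-08. The pooled levels give a smaller fold. The stalk proteins themselves moved less: Rplp0, the stalk's anchor, had a log2 ratio of 0.60 ± 0.08, Rplp1 0.47 ± 0.07 and Rplp2 0.45 ± 0.07, all called higher.

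The other large subunit genes with high ratios were Rpl32, Rpl36a, Rpl37a and Rpl19. Rpl32 had 9.60 and 9.98 UMIs per 10000 in T cells and 6.47 and 6.93 in CD3-zero cells (log2 0.63 ± 0.08). Rpl36a, on the X chromosome, had 9.75 and 9.37 in T cells and 6.71 and 6.37 in CD3-zero cells (log2 0.61 ± 0.09). Rpl37a had 24.8 and 26.0 in T cells and 17.1 and 18.1 in CD3-zero cells (log2 0.61 ± 0.07). In each of these 3 both T cell values exceeded both CD3-zero values, a description of genes already chosen as called higher. Rpl19 stood at 0.60 ± 0.09 and Rpl39, a very small protein of the exit tunnel, at 0.58 ± 0.07 on the log2 scale.

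Among small subunit genes the highest ratios belonged to Rps13 and Rps24. Rps24, whose human counterpart is mutated in some cases of Diamond-Blackfan anaemia, had 33.8 and 34.9 UMIs per 10000 in T cells and 23.7 and 25.3 in CD3-zero cells. Its log2 ratio was 0.60 ± 0.06 (edgeR adjusted p = 2.5e-07). Rps13 had 19.9 and 19.9 in T cells and 13.4 and 14.3 in CD3-zero cells, a log2 ratio of 0.60 ± 0.07. The most captured gene, Rps27, had 41.1 and 41.0 in T cells and 33.4 and 33.4 in CD3-zero cells, a log2 ratio of 0.36 ± 0.06 that was called higher.

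The called genes with the lowest log2 ratios included Rpl28 at 0.25 ± 0.08, Rps29 at 0.26 ± 0.07, Rpl35a at 0.28 ± 0.08, Rpl7a at 0.30 ± 0.09, Rpl8 and Rpl9 at 0.31 each and Rpl15 at 0.32 ± 0.09. Their edgeR adjusted p-values ran between 0.0029 for Rpl9 and 0.027 for Rpl28. In each of those named here both T cell levels exceeded both CD3-zero levels, which is no separate support, since they were chosen as called higher. Rpl28 and Rpl7a were not called without TMM, and Rpl35a and Rpl7a were not called against CD3-zero cells with no T cell receptor UMI.

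The 8 genes not called fall into ribosomal proteins proper and relatives. Rpl10, which joins the large subunit late in its maturation, had 4.84 and 4.82 UMIs per 10000 in T cells and 4.57 and 4.82 in CD3-zero cells, a log2 ratio of -0.01 ± 0.09 (edgeR adjusted p = 0.98). Its processed copy Rpl10-ps3 had 5.52 and 5.58 in T cells, 5.39 and 5.31 in CD3-zero cells and a log2 ratio of -0.001 ± 0.09. Rpl21 had 10.1 and 10.3 in T cells and 10.3 and 10.1 in CD3-zero cells (log2 0.03 ± 0.08), so the groups overlapped. Rpl31 stood at 0.18 ± 0.08 (edgeR adjusted p = 0.11). Another copy behaved otherwise: Rpl13a-ps1 was called higher with a log2 ratio of 0.70 ± 0.11, and so was Rpl13a at 0.57 ± 0.12.

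The relatives were all sparse except Rpl22l1, the paralog of Rpl22, with a log2 ratio of 0.24 ± 0.10 (edgeR adjusted p = 0.10). Rps27l, a paralog of Rps27 that p53 induces in human cells, stood at -0.45 ± 0.22 (edgeR adjusted p = 0.19), Rpl36al at -0.27 ± 0.36, Rpl7l1 at -0.04 ± 0.22 and Rps19bp1 at -0.49 ± 0.42. Set against its partner, Rps27l had 5.57 and 5.42 UMIs per 1000 Rps27 UMIs in T cells and 8.75 and 10.1 in CD3-zero cells. Rpl36al had 8.60 and 8.58 per 1000 Rpl36a UMIs in T cells and 15.9 and 14.4 in CD3-zero cells. Rpl7l1 had 25.4 and 36.0 per 1000 Rpl7 UMIs in T cells against 40.6 and 43.3 in CD3-zero cells. In each of these pairs the groups did not overlap, on at most 170 paralog UMIs per sum. The partners Rps27, Rpl36a and Rpl7 were themselves called higher in T cells, which alone lowers such a ratio. None of these paralogs was called, so no change of the paralogs themselves was shown. Rpl22l1, at 471 and 384 per 1000 Rpl22 UMIs in T cells and 450 and 418 in CD3-zero cells, and Rps27rt, at 81.7 and 65.7 per 1000 Rps27 UMIs in T cells and 79.2 and 64.6 in CD3-zero cells, overlapped. Without the paralogs and Rps19bp1, 73 of 76 genes were higher in T cells.

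**Figure D3:**
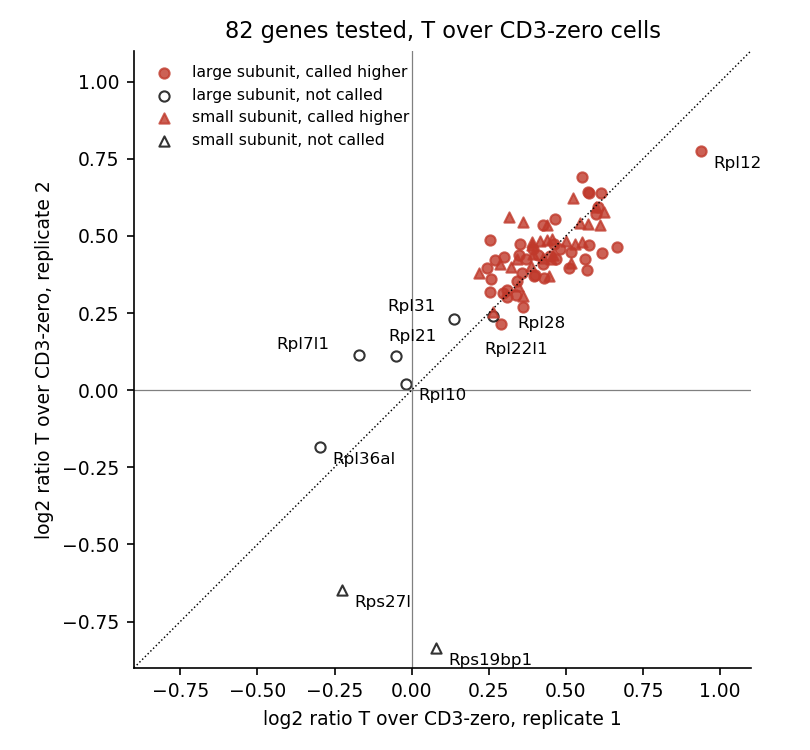
Log2 ratio of T over CD3-zero cells in replicate 1 (horizontal) and replicate 2 (vertical) for the 82 genes tested. Filled symbols were called higher, open ones were not, and the dotted line marks equal ratios. By symbol, circles are large and triangles small subunit genes, with Rps19bp1 among the triangles. Rpl12 stands apart at 0.94 and 0.77, Rpl10 and Rpl21 lie near 0, and Rps27l and Rpl36al are below 0 in both replicates.

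Ratios of single genes were also taken relative to the 84 genes' summed UMIs, a scaling chosen after the values were seen that sets the median of all genes to -0.37 on the log2 scale. Against this sum, 6 of 82 genes were higher in T cells (3.22% of all genes tested) and 5 were lower (31.4% of all genes tested). The 6 were Rpl12 at 0.43 ± 0.08, Rpl32 at 0.20, Rpl37a at 0.18, Rps13 and Rps24 at 0.17 and Rpl39 at 0.16. The 5 were Rps27l at -0.87 ± 0.22, Rpl10 at -0.43 ± 0.08, Rpl21 at -0.40 ± 0.07, Rpl31 at -0.24 ± 0.07 and Rps29 at -0.17 ± 0.06. The others were not called. Across the 82 genes the unscaled ratios of the 2 replicates correlated with a Pearson r of 0.77, a description over genes that share libraries.

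Genes with and without an annotated pyrimidine start were both mostly higher in T cells. With a pyrimidine start, 13 of 13 tested were higher (median log2 0.41), and with another start 42 of 49 (median 0.44). Among genes outside the ribosomal protein set, 20 of 230 with a pyrimidine start were higher (8.70%), against 550 of 7274 with another start (7.56%).

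Between Ncr1+ and Ccr6/Cd4+ cells 0 of 82 genes were called in either direction by edgeR, against 2.35% higher and 2.26% lower of all genes tested. At an unadjusted p under 0.05, 9 were higher and 1 lower, where 15.9% of all genes passed in either direction. This tally turned round with the scaling: it was 0 higher and 8 lower without TMM, 0 and 7 scaled to the other genes and 3 and 5 with DESeq2, and the median log2 ratio of 0.06 became -0.02 without TMM. DESeq2 called 0 higher and 1 lower, against 1.42% and 2.22% of all genes. The gene lower with DESeq2 was Rpl10, described for that reason after its values were seen. It had 4.20 and 4.56 UMIs per 10000 in Ncr1+ cells and 6.60 and 5.91 in Ccr6/Cd4+ cells, with no overlap. Its log2 ratio was -0.45 ± 0.13 (edgeR adjusted p = 0.053), and relative to the summed ribosomal protein UMIs it was -0.50 ± 0.12 (edgeR adjusted p = 0.013), a scaling under which 2.53% of all genes were lower. In the other CD3-zero cells Rpl10 stood at 4.58 and 4.83, and the log2 ratio of Ccr6/Cd4+ cells over them was 0.33 ± 0.13 (edgeR adjusted p = 0.20). Relative to the summed ribosomal protein UMIs that ratio was 0.42 ± 0.12 (edgeR adjusted p = 0.039), where 2.15% of all genes were higher. The share of Ncr1+ cells over Ccr6/Cd4+ cells had a log2 ratio of -0.02 and -0.04 in replicates 1 and 2. The Ccr6/Cd4+ sums rest on 128 and 79 cells, and with Ccr6 alone as the gate Rpl12, Rpl39 and Rplp2 were called higher in Ncr1+ cells, 3 of 82 genes where 2.92% of all genes were higher.

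Ncr1+ cells over the other CD3-zero cells gave 0 called genes with edgeR, 0 at an unadjusted p under 0.05 and 0 with DESeq2 (0.083% higher and 1.13% lower of all genes tested with edgeR). At an unadjusted p under 0.05, 8% of all genes passed, and with DESeq2 0.0934% were lower. Their log2 ratios had a median of -0.04, and the extremes, Rpl36al at -0.28 ± 0.40 and Rps19bp1 at 0.28 ± 0.45, were sparse genes. Ccr6/Cd4+ cells over the other CD3-zero cells gave 0 called genes with edgeR and with DESeq2, against 1.59% higher and 2.55% lower of all genes tested, while 1 was higher and 10 lower at an unadjusted p under 0.05. Here too the scaling turned the tally, to 4 higher and 1 lower without TMM and 4 and 2 scaled to the other genes, and the median log2 ratio of -0.12 became -0.02 without TMM. Of all genes 15% passed that p, and DESeq2 called 1.42% higher and 1.08% lower. The smallest p-values there belonged to Rps21 at a log2 ratio of -0.30 ± 0.10 (edgeR adjusted p = 0.13) and Rps24 at -0.24 ± 0.09 (edgeR adjusted p = 0.14), in both replicates below 0. Rps24 was called lower in Ccr6/Cd4+ cells after thinning, at -0.34 ± 0.10 (edgeR adjusted p = 0.032), and with gates of 2 UMIs, at -0.42 ± 0.13 (edgeR adjusted p = 0.037).

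No ribosomal protein gene was called between CD3-zero cells rich in Il22 transcripts and those without. The share was 8.46% and 8.57% with at least 5 Il22 UMIs, against 8.53% and 8.92% with 0. By edgeR 0 of 82 genes were called, against 1.47% higher and 2.91% lower of all genes tested, with 0 higher and 5 lower at an unadjusted p under 0.05 and 0 called by DESeq2. Of all genes 14.7% passed the unadjusted p, and DESeq2 called 0.335% higher and 0.601% lower. Rps27 had 32.4 and 30.9 UMIs per 10000 with at least 5 Il22 UMIs and 33.9 and 35.0 with 0, a log2 ratio of -0.11 ± 0.04 (edgeR adjusted p = 0.18). The median log2 ratio was -0.01 over the 82 genes and -0.001 over all genes. Over all kept cells, T cells included, 33 genes were lower and 0 higher with edgeR, against 5.24% lower and 4.3% higher of all genes tested. T cells were 71 of 590 and 78 of 691 kept cells with at least 5 Il22 UMIs. Among kept cells with 0 they were 798 of 1770 and 822 of 2142. The part of this unequal mix in the 33 calls was not tested.

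T cells with at least 5 Il22 UMIs (71 and 78 cells) had a share of 10.1% and 10.1%, against 11.1% and 11.3% in T cells with 0 (798 and 822 cells). Of 80 genes tested, 5 were lower and 0 higher with edgeR, against 1.41% lower and 1.99% higher of 6445 genes. They were Rps16 at a log2 ratio of -0.33 ± 0.07, Rpl12 at -0.35 ± 0.09, Rpl39 and Rpl37a at -0.30 ± 0.07 each and Rps27 at -0.25 ± 0.06. Rpl12 had 11.4 and 10.8 UMIs per 10000 in T cells with at least 5 Il22 UMIs and 13.95 and 14.2 in those with 0. Rps16, a small subunit protein at the decoding side, had 18.97 and 20.5 with at least 5 and 23.6 and 25.4 with 0. Both T cell classes stayed above the CD3-zero classes in share. The difference between the Il22 ratios of T and CD3-zero cells, tested after these values were seen, had a median of -0.15, but edgeR called 0 of 83 genes (1.89% higher and 0.184% lower of all genes tested) while 13 were lower at an unadjusted p under 0.05. DESeq2 was not run on it. The smallest adjusted p was 0.14, for Rps16 at -0.31 ± 0.10, so a difference between T and CD3-zero cells was not shown.

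**Figure D4:**
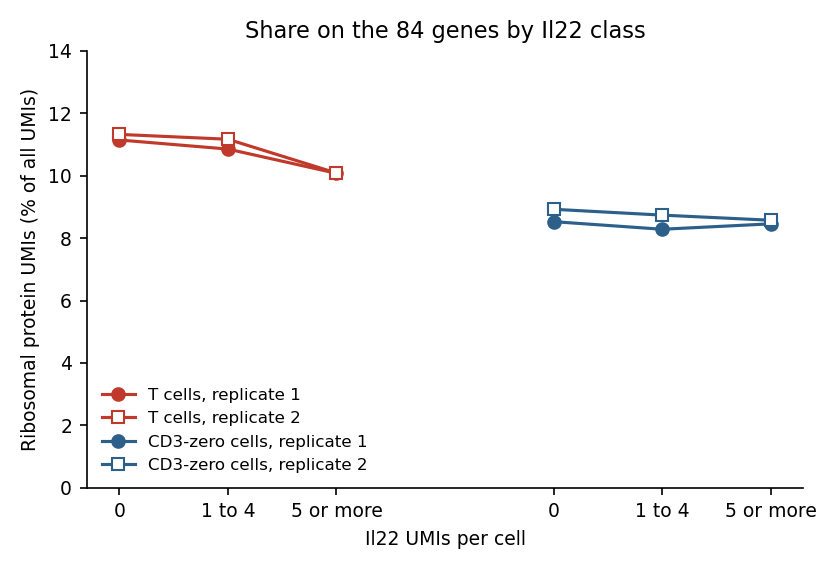
Share of UMIs on the 84 genes (%) by Il22 UMIs per cell in T cells (red, left) and CD3-zero cells (blue, right), with a line per replicate. In T cells the class with at least 5 Il22 UMIs stands at 10.1% in both replicates and the class with 0 at 11.1% and 11.3%, and in CD3-zero cells all classes lie between 8.28% and 8.92%.

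**Figure D5:**
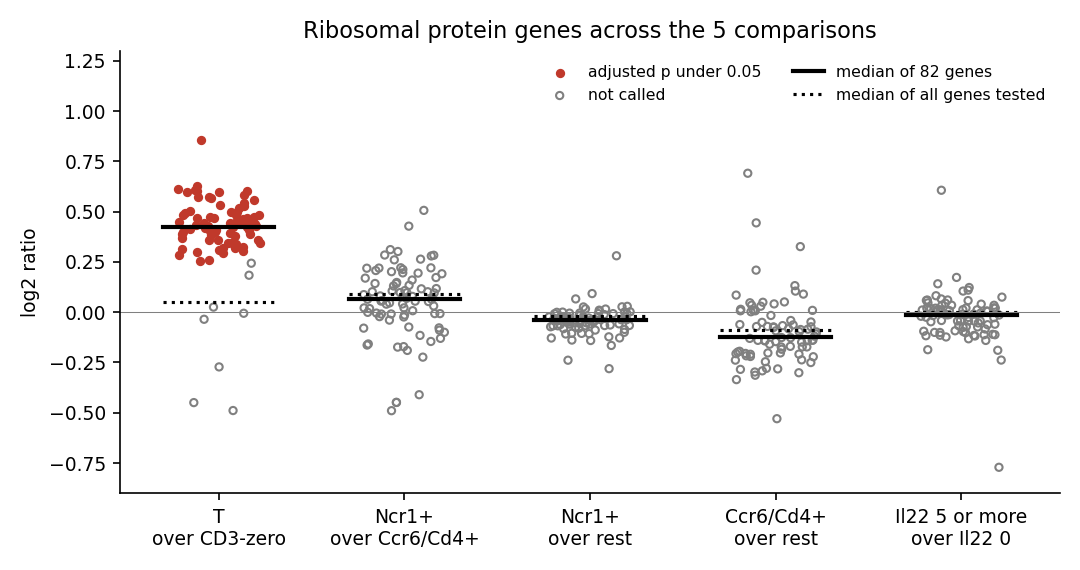
Log2 ratios of the 82 genes tested in the 5 comparisons, with called genes in red, the median of the 82 genes as a solid and of all genes tested as a dotted line. The median lies at 0.42 against 0.05 for all genes in T over CD3-zero cells, and within 0.04 of the median of all genes in the other 4 comparisons.

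Other genes of translation and its control are read against all genes tested in T over CD3-zero cells, of which 8.8% were higher and 6.42% lower, with a median log2 ratio of 0.05. Of 19 tested genes known for TOP-type starts outside the name rule, 12 were higher and 0 lower in T cells, with a median log2 ratio of 0.32. They include the subunit genes Fau, with 11.1 and 12.1 UMIs per 10000 in T cells and 8.66 and 9.24 in CD3-zero cells (log2 0.44 ± 0.08), and Rack1, with 9.06 and 8.65 against 6.50 and 6.99 (log2 0.48 ± 0.09). Vim, the intermediate filament vimentin, had the highest log2 ratio of this list, 1.04 ± 0.10, and Npm1, a nucleolar chaperone, stood at 0.48 ± 0.08.

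Translation factors, a list that shares genes with the TOP-type list, gave 7 higher and 1 lower of 36 (median 0.15). Eef1a1, the elongation factor that carries aminoacyl-tRNA, had 71.4 and 72.2 UMIs per 10000 in T cells and 58.7 and 61.8 in CD3-zero cells (log2 0.31 ± 0.06). Eef1b2, its exchange factor, stood at 0.46 ± 0.08 and the poly(A)-binding protein gene Pabpc1 at 0.36 ± 0.07, while Eif3a, the largest scaffold of initiation factor 3, was lower at -0.30 ± 0.09. Of 37 ribosome biogenesis genes only Noc2l was called (log2 0.97 ± 0.23), and 0 were lower, a smaller share higher than among all genes. The median log2 ratio of this list was nonetheless 0.23, against 0.05 over all genes tested. Noc2l itself was sparse, with 0.32 and 0.47 UMIs per 10000 in T cells and 0.18 and 0.22 in CD3-zero cells. Mitochondrial ribosomal proteins, which serve the organelle's own ribosome, gave 3 higher and 0 lower of 74, also a smaller share than among all genes, with a median of 0.22.

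Of 23 mTOR pathway and TOP control genes, 5 were higher and 0 lower in T cells, where 8.8% of all genes were higher and 6.42% lower. Sesn3 (log2 0.66 ± 0.14) and Ddit4 (1.07 ± 0.26) encode inhibitors of mTOR complex 1, and Max (0.57 ± 0.17) is the partner of Myc. Of 14 genes of lymphocyte quiescence and recirculation, Foxo1 (0.94 ± 0.11), Ets1 (0.55 ± 0.08) and Btg1 (0.38 ± 0.09) were higher and Tcf7 (-0.50 ± 0.10) was lower. Of 20 early response genes, which stimulation and tissue dissociation induce, 2 were higher and 10 lower in T cells. The higher were Dusp2 at 1.76 ± 0.23, the largest ratio of this list, and Ier3 at 0.81 ± 0.27. The lower included Atf3 at -1.31 ± 0.13, Nr4a1 at -0.76 ± 0.11 and Zfp36l1 at -0.54 ± 0.07. Of 11 heat shock genes, with a share higher near that of all genes, 1 was higher, Hspe1 at 0.37 ± 0.11, and 2 were lower, Dnaja1 at -0.67 ± 0.10 and Hspa1b at -0.57 ± 0.15. The part of these lists in the ribosomal protein share was not tested.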

How the data were processed

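The deposited files hold raw UMI counts per cell and gene, which the authors made with BD's Rhapsody WTA pipeline, version 1.8, on GRCm38 with GENCODE M19, per the file headers, and a sample tag call per cell. HISAT2 2.0.5, Bowtie2 and the builds GRCm38.p6 and mm10 appear in the submitters' processing notes. Cells of the replicate's own tag (3427 and 3954 of 15793 and 16531) were used, without multiplets (572 and 987) or undetermined cells, and no doublet caller was run. Cells under 300 genes or over 25% mitochondrial UMIs were dropped. Own-tag cells held 7011649 and 6845914 UMIs. A gene missing from 1 table was read as 0 there (19031 genes are in both).

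UMIs were summed per replicate and group and tested with edgeR 4.0.16 (R 4.3.3): TMM, filterByExpr, quasi-likelihood, replicate as a block, Benjamini-Hochberg at 0.05 over all genes tested, gate genes left out of the calls. The block is the library, since both groups of a replicate are cells of 1 library. T cells were set against the mean of the 3 CD3-zero groups on the log2 scale, and the 4 groups share 1 fit. Standard errors come from each log2 ratio and its F statistic, and ratios of single replicates use a prior count of 2. The test was tested on simulated data. Alternatives covered DESeq2 1.42.0, scaling, filters, thinning to 1000 UMIs, the block and the gates. Levels and intervals cover 2 samples only. Counting error is small for well-captured genes in the larger sums. It is not small for sparse genes, such as Rpl36al with 22 and 17 UMIs in T cells of replicates 1 and 2. The same holds for less captured genes in the Ccr6/Cd4+ sums.

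Named genes are, per comparison, the 8 highest and 8 lowest called genes, the 10 with most UMIs, paralogs with partners, genes near the UMI minimum, and up to 3 per direction of each other list by adjusted p. Others named were chosen after their values were seen, apart from Fau and Rack1, named as ribosomal proteins that the rule misses. Some genes are not reported here. The members and lists were chosen with earlier results of these data known. The rest used Python.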

Additional observations from a re-analysis of the deposited data

How the results depend on the processing

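In T over CD3-zero cells, 74 genes were higher under DESeq2, scaling to other genes, no count filter, both other cell filters and a gate of 2 CD3 UMIs, 73 after thinning, 71 without TMM (7.46% of all genes) and 67 against CD3-zero cells with no T cell receptor UMI (8.68% of all genes). Without the replicate block 0 were called, and scaled to the 84 genes' sum 6 were higher and 5 lower. In Ncr1+ over Ccr6/Cd4+ cells, 3 genes were higher with Ccr6 alone (2.92% of all genes) and 1 with gates of 2 UMIs (2.02%), shares near those of all genes. There 1 was lower with DESeq2, after scaling to the 84 genes' sum, under the stricter cell filter and after thinning (Rpl10 each time), and 2 without TMM and scaled to other genes (Rpl10 and Rps9), where 2.22% to 2.66% of all genes were lower. In Ccr6/Cd4+ over other CD3-zero cells, 1 gene was higher without TMM, scaled to other genes and scaled to the 84 genes' sum (Rpl10, where 2.09% to 2.15% of all genes were higher), 1 was lower after thinning (Rps24, 2.21% of all genes) and 2 with gates of 2 UMIs (Rpl39 and Rps24, 2.36%). With at least 5 Il22 UMIs over 0, 33 genes were lower over all kept cells (5.24% of all genes) and 5 in T cells alone (1.41%). The causes of these differences were not tested.

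The log2 ratio of the T share, 0.36, was 0.40 against CD3-zero cells with no T cell receptor UMI. For Ncr1+ over Ccr6/Cd4+ cells it was -0.03, and 0.0514 with Ccr6 alone. For Ncr1+ over other CD3-zero cells it was -0.03, with -0.0165 under the looser and -0.0284 under the stricter filter, -0.0316 after thinning and -0.0455 with gates of 2 UMIs. For Ccr6/Cd4+ over other CD3-zero cells it was 0.003, with -0.0153 after thinning and -0.0283 with gates of 2 UMIs. For Il22 it was -0.03, with -0.16 over all kept cells and -0.16 in T cells. Leaving out a replicate gave 0.35 to 0.38 for T cells, -0.04 to -0.02 for Ncr1+ over Ccr6/Cd4+, -0.03 to -0.02 for Ncr1+ over other, -0.01 to 0.02 for Ccr6/Cd4+ over other and -0.06 to -0.01 for Il22. Counts of genes have no such value, since 1 replicate leaves no residual degrees of freedom. The Ccr6/Cd4+ sums hold 237874 and 153949 UMIs, from 128 and 79 cells.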
